A study of Mus musculus with 20 samples.

Results

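Collagen is folded and modified in the endoplasmic reticulum (ER) before it is secreted, and this report follows 38 mouse genes for that work through the left ventricle 3 days after myocardial infarction (MI). The list was fixed by gene symbol: 19 genes of collagen-specific enzymes, chaperones and procollagen processing, 14 general ER chaperones and folding factors, and 5 regulators of the ER stress response. A member was tested where 1 of its probes had a detection p-value under 0.01 on at least 5 of the 20 arrays, and the probe with the highest mean was used. This left 33 of the 38 members among 12921 genes and unnamed probes tested. Hyou1 was the tested member nearest the limit, detected on 10 arrays, and every other tested member was detected on 17 or more. P4ha3, Canx and Manf lay outside it, detected on 0 of 20 arrays, and Fkbp10 and Dnajb11 had no probe in the platform annotation used here.

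The study measured RNA on Illumina bead arrays, 1 array per mouse, in 4 groups of 5 mice: males and females, each after sham surgery or MI. All were C57BL/6J mice aged 12 to 15 weeks with no transgene named in the labels, and MI was made by tying off a coronary artery. The ventricle was sampled with the infarct left out, so the values describe tissue outside the infarct. Each group is defined by sex and surgery only, and replicate error is the spread between the 5 mice.

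A collagen chain enters the ER through the Sec61 channel, where prolyl and lysyl residues are hydroxylated and sugars are added before 3 chains wind into the triple helix. Dedicated chaperones hold the helix, and the propeptides are cut off after secretion. General chaperones such as BiP (Hspa5) and GRP94 (Hsp90b1) serve all secreted proteins, and their genes are classic targets of the unfolded protein response, in which ATF6, XBP1 and ATF4 switch on transcription. In the injured heart, fibroblasts are the main known source of interstitial collagen. In bulk tissue, more cells of a type and more RNA per cell cannot be told apart.

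A known switch for ER stress is an element called ERSE, read as CCAAT, 9 bases of any kind and CCACG. It is not the only such element, and the promoters of the members are shown first. The 250 bases before each RefSeq gene start (assembly GRCm38.p6) were searched on both strands for 32 of the 38 members; Plod2, Fkbp10, Bmp1, Hyou1, Manf and Atf6 were not in the promoter table. The exact ERSE letters stood in 7 of 12 general chaperone genes (58.3%), in 0 of 16 collagen-specific genes and in 0 of 4 regulators, against 35 of 27025 genes overall (0.13%). Below is each ERSE with 12 flanking bases on either side, written in the direction of the gene with the 2 ends of the element in capitals (CCAAT and CCACG, or CGTGG and ATTGG where it lies on the other strand). They are shown because the element was found in general chaperone genes and in no collagen-specific gene. For Hsp90b1, which held 2, the 1 nearer the start is printed.
Hspa5 (chr2:34772013-34772055, plus strand, bases −77 to −35 from the gene start): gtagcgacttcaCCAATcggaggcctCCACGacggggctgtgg
Calr (chr8:84847063-84847105, minus strand, bases −174 to −132 from the gene start): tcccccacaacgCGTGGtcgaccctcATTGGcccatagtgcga
Hsp90b1 (chr10:86705521-86705563, minus strand, bases −119 to −77 from the gene start): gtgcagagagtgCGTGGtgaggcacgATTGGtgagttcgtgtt
Canx (chr11:50325788-50325830, minus strand, bases −157 to −115 from the gene start): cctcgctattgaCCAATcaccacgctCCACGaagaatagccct
Pdia6 (chr12:17266479-17266521, plus strand, bases −110 to −68 from the gene start): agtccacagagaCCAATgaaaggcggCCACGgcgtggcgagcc
Dnajc3 (chr14:118937815-118937857, plus strand, bases −117 to −75 from the gene start): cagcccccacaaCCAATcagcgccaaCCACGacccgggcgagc
Creld2 (chr15:88819508-88819550, plus strand, bases −138 to −96 from the gene start): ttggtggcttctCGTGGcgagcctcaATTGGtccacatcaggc

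The 2 ends of the element are common on their own, CCAAT being found in 37.5% of all genes and CCACG in 31% of them. CCAAT was present in 11 of 12 general chaperone genes and 6 of 16 collagen-specific genes, and CCACG in 8 of 12 and 11 of 16. The full 250 bases are printed for Hspa5, the BiP gene, for Serpinh1, the collagen chaperone gene, and for P4hb, a prolyl 4-hydroxylase subunit gene, with every CCAAT and CCACG, on either strand, in capitals. Hspa5 holds 4 copies of CCAAT and 1 CCACG, whereas Serpinh1 has 1 CCACG and no CCAAT, and P4hb has 1 of each at another spacing.
Hspa5 (chr2:34771840-34772089, plus strand, bases −250 to −1 from the gene start): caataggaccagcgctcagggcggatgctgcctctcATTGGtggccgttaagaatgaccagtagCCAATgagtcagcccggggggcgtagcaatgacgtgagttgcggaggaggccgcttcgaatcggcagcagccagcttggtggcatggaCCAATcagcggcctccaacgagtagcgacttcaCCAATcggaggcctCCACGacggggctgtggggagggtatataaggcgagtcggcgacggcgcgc
Serpinh1 (chr7:99353240-99353489, minus strand, bases −250 to −1 from the gene start): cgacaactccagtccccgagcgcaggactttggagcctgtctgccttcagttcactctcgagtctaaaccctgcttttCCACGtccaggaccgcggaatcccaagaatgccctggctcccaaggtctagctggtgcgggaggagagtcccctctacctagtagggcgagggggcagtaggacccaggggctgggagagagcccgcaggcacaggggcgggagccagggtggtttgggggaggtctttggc
P4hb (chr11:120573254-120573503, minus strand, bases −250 to −1 from the gene start): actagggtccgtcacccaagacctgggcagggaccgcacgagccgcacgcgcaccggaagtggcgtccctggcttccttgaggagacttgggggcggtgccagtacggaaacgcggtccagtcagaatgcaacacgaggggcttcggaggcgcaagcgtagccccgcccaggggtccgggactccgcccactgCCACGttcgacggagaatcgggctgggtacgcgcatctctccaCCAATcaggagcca

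Other response elements were searched for in the same way. The related element ERSE-II, read as ATTGG, 1 base of any kind and CCACG, was found in Herpud1 alone among the 32 and in 10 of 27025 genes (0.037%). Its window is shown because Herpud1 is the regulator-class gene that carries a stress element of this kind.
Herpud1 (chr8:94386365-94386399, plus strand, bases −64 to −30 from the gene start): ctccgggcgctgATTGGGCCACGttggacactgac
The XBP1-type letters TGACGTGG were in 0 of the 32 members (0.603% of all genes), and the amino acid response core TGATGCAA was in Herpud1 alone (0.918% of all genes). The hypoxia element core TACGTG was found in P4ha1, P4ha2, Plod3 and Fkbp9, 4 of 16 collagen-specific genes, against 3.12% of all genes. A match of letters is a description of the sequence and does not show that a factor binds there.

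**Figure D1:**
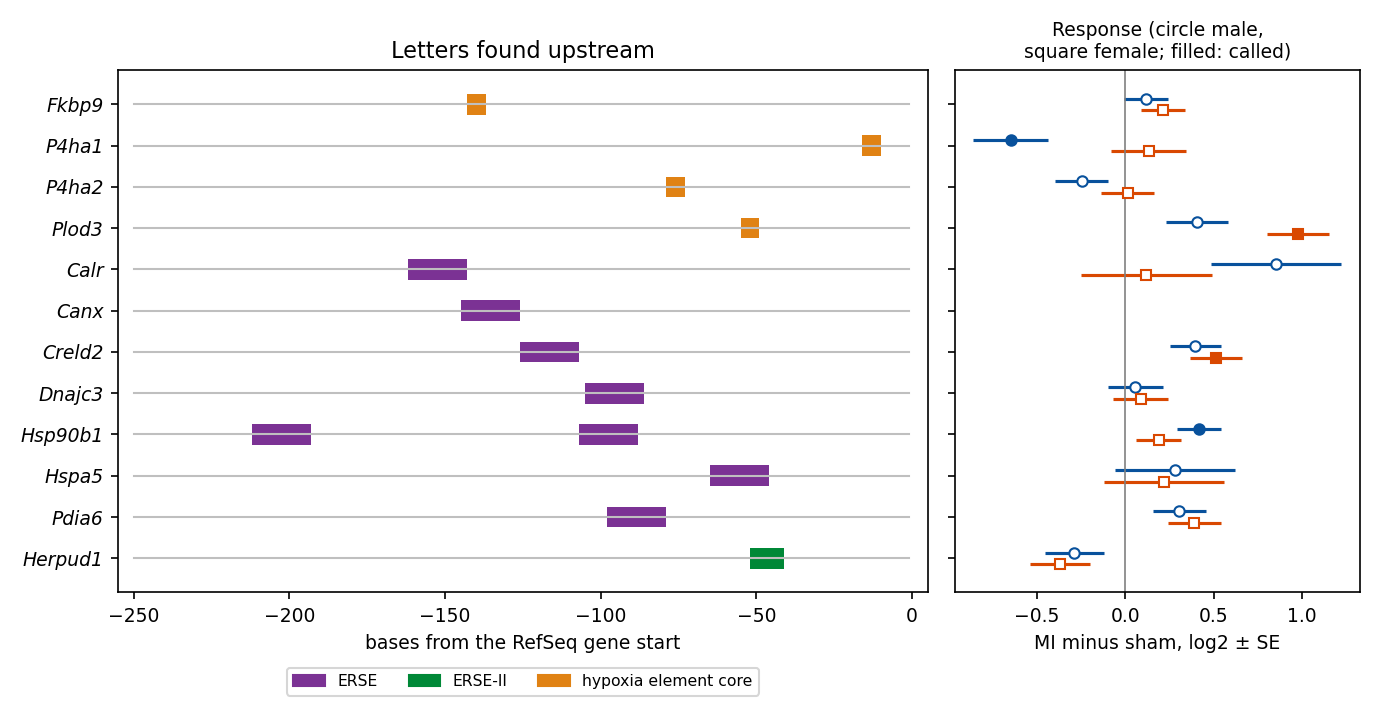
Positions of exact ERSE, ERSE-II and hypoxia core letters in the 250 bases before the gene start (left, bases from the start) and the MI minus sham log2 difference ± SE of the same genes (right, circles for males and squares for females, filled at an adjusted p under 0.05, 5 mice per group). Of the 6 tested genes with an ERSE, 1 is filled in males (Hsp90b1) and 1 in females (Creld2); Canx has no tested probe.

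Depth and array quality bear on the whole list as follows. Raw median intensity was 31.4 to 39.2 per array, and 15670 to 18388 probes were detected (34.6% to 40.6%). The arrays lie on 4 chips: chip 1 holds 3 male sham and 3 male MI arrays, chip 2 holds 2 each of male sham, male MI and female sham, chip 3 holds 2 female sham and 4 female MI, and chip 4 holds 1 of each female group. The 3 arrays in chip position F (male sham 3, female sham 2 and female MI 4) read over 1 log2 unit lower than the other arrays for 577 of the kept probes. Among the members that shift was −1.16 for Hspa5 and −0.71 for Fkbp7. Other members read higher there, up to 0.55 for Plod1 and Serpinh1, with Plod2 at 0.51, P3h1 at 0.49, Bmp1 at 0.48 and Plod3 at 0.47. Cardiomyocyte markers were present throughout, with 9 of 10 tested and a summed normalised intensity between 78085 and 93938 on every array.

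After MI part of the collagen-specific class rose in both sexes. The largest rise was that of Fkbp11, an ER proline isomerase listed in this class and known from secretory cells. In males 11 of the 33 tested members rose and 1 fell, where 9.77% of all genes tested rose and 8.59% fell (18.4% changed). In females 16 rose and 0 fell, where 16.5% of all genes rose and 16.3% fell (32.7% changed). By class, 7 of 17 collagen-specific genes rose, 1 fell and 9 did not pass the test in males, and 11 of 17 rose and 6 did not pass it in females. Of the 11 general chaperones, 4 rose in males and 5 in females. None of the 5 stress regulators passed the adjusted test in either sex by limma, with 1 of 5 at an unadjusted p under 0.05 in each, where 32.3% of all genes in males and 42.6% in females had one. All MI mice lay above all sham mice for 11 members in males and 9 in females, where 9.71% and 8.11% of all genes did. In both sexes 10 members rose, P4hb, P3h1, Crtap, Ppib, Fkbp11, Colgalt1, Pcolce, Pdia3, Pdia4 and Sec61b, which is 90.9% of the male and 62.5% of the female list; over all genes the shares were 89.1% and 52.9%.

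The counts were close to these without the arrays in position F, at 13 higher and 0 lower in males and 17 higher and 0 lower in females. With the chip as a fixed block 11 rose and 1 fell in males and 14 rose in females, the calls of Pdia3 and Creld2 being lost in females. Within chip 1 the male comparison gave 11 higher and 2 lower members, and within chip 2, with 2 mice against 2, it gave 3 higher and 0 lower. Within chip 3, with 4 female MI against 2 female sham, 6 members rose. Chip 4 holds 1 mouse per group and allows no test. The shares of all genes called under these settings are not given here.

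**Figure D2:**
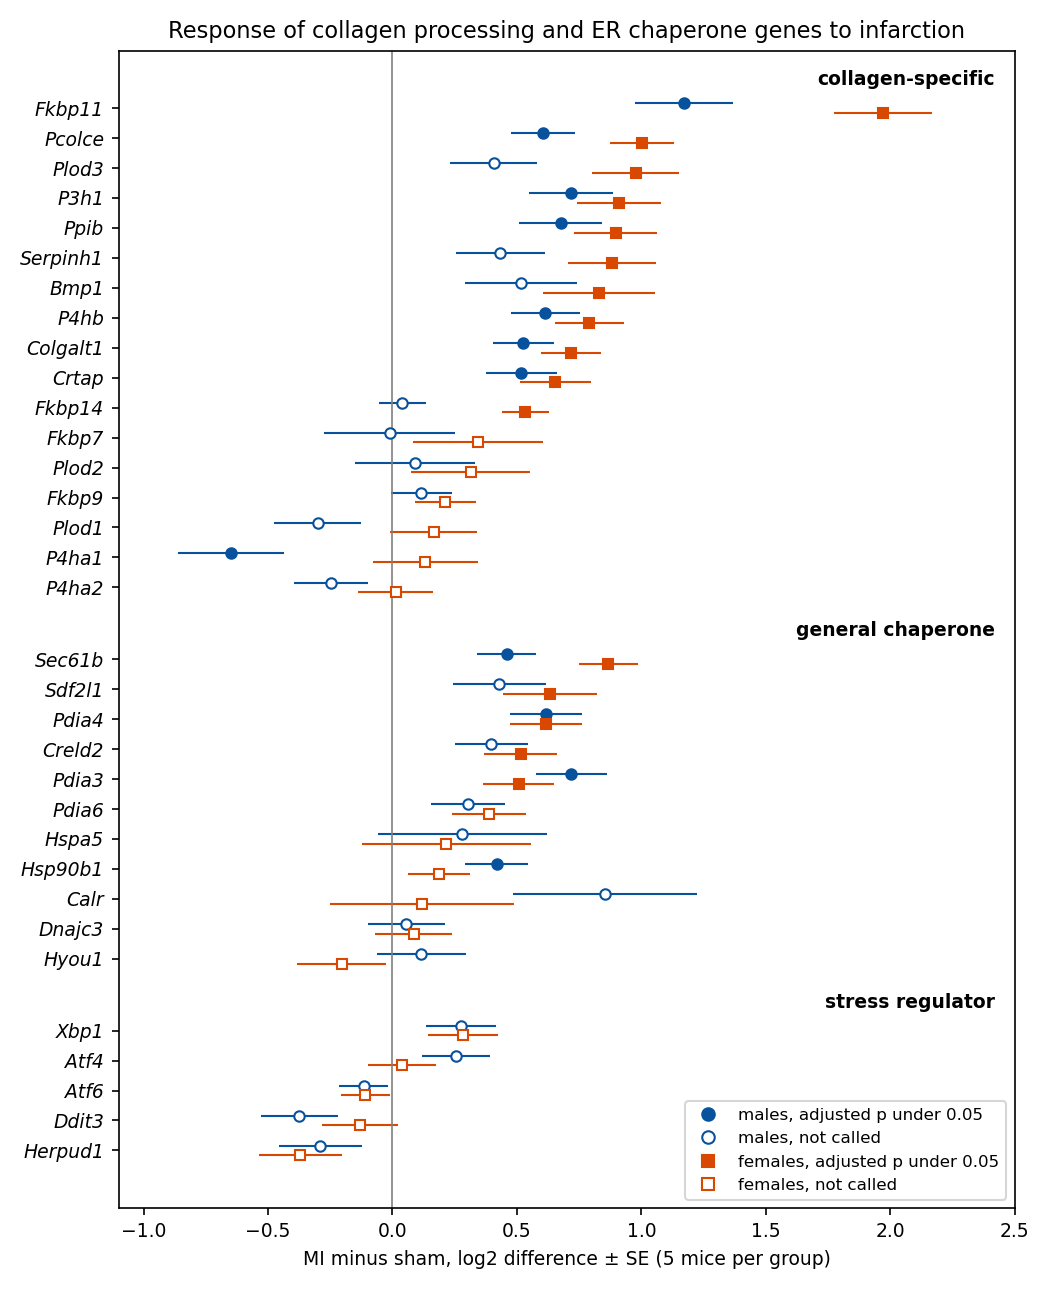
MI minus sham difference of each of the 33 tested members, in log2 units ± SE with 5 mice per group, for males (circles) and females (squares); filled symbols have an adjusted p under 0.05. Filled symbols mark 7 rises and 1 fall among 17 collagen-specific genes in males and 11 rises in females. Among 11 general chaperones they mark 4 rises in males and 5 in females, and the stress regulator block has none. Over all genes 18.4% changed in males and 32.7% in females. Fkbp11 lies farthest right, at 1.17 in males and 1.97 in females.

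Prolyl 4-hydroxylase, whose product 4-hydroxyproline stabilises the triple helix, did not move as a unit. P4hb, its β subunit and at the same time a protein disulphide isomerase, read 10.999, 10.81, 11.07, 11.18 and 11.04 in the male sham mice and 11.63, 11.62, 11.87, 11.50 and 11.55 after MI, on the normalised log2 scale used for all levels here. All 5 male MI mice lay above all male sham mice, and the difference was 0.61 (SE 0.14, 1.53-fold, adjusted p = 0.0043). In females P4hb read 11.08, 11.56, 10.91, 11.43 and 10.91 after sham surgery and 12.12, 12.08, 11.57, 12.22 and 11.85 after MI. Again the groups did not overlap, although female MI 3 at 11.57 stood next to female sham 2 at 11.56, and the difference was 0.79 (SE 0.14, 1.73-fold, adjusted p = 0.000222). Within chips 1 to 4 the P4hb difference was 0.75, 0.41, 0.83 and 0.94.

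The catalytic α subunits did not follow the β subunit upward. P4ha1 read 7.73, 7.51, 7.68, 6.58 and 7.40 in male sham and 7.04, 6.71, 6.70, 6.68 and 6.53 in male MI. Only male sham 4 overlapped the MI range, and P4ha1 was called lower, at −0.65 (SE 0.21, 0.638-fold, adjusted p = 0.0374). This call was lost when any of 8 single arrays was left out (male sham 1, 2, 3 or 5, or male MI 2, 3, 4 or 5), and a dimmer P4ha1 probe gave 0.11 in males (adjusted p = 0.769). In females P4ha1 differed by 0.13 (SE 0.21, adjusted p = 0.671). P4ha2 showed −0.25 (SE 0.15, adjusted p = 0.26) in males and 0.01 (SE 0.15, adjusted p = 0.958) in females, and a second probe gave −0.33 and 0.01, neither passing the test.

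The lysyl hydroxylases, which prepare collagen for cross-linking and glycosylation, were uneven. Plod3, which can also add sugars to hydroxylysine, read 9.03, 9.68, 8.93, 9.56 and 9.37 in female sham and 10.35, 10.44, 9.78, 10.77 and 10.12 in female MI. The groups did not overlap, and Plod3 rose by 0.98 (SE 0.17, 1.97-fold, adjusted p = 0.000243). In males it differed by 0.41 (SE 0.17, adjusted p = 0.11). A second, much dimmer Plod3 probe went the other way, at −0.57 in males (adjusted p = 0.0351) and −0.33 in females (adjusted p = 0.173), so the direction of Plod3 depends on the probe. Plod1 differed by −0.30 (SE 0.17, adjusted p = 0.242) in males and 0.17 (SE 0.17, adjusted p = 0.499) in females, where female sham 2, a position F array, read 7.45 and the other female sham mice 6.27 to 6.57. Without that array the female value was 0.37 (adjusted p = 0.0363). Plod2, the enzyme of the telopeptide lysines, did not pass the test in either sex, at 0.09 (SE 0.24, adjusted p = 0.832) in males and 0.31 (SE 0.24, adjusted p = 0.338) in females.

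The prolyl 3-hydroxylase complex modifies single prolines of fibrillar collagen and also acts as a folding catalyst. On the probes used, all 3 of its genes rose in both sexes. P3h1, the enzyme, read 5.54, 5.67, 6.15, 5.36 and 5.78 in male sham and 6.40, 6.30, 6.43, 6.32 and 6.61 in male MI, without overlap. It rose by 0.72 (SE 0.17, 1.64-fold, adjusted p = 0.00543) in males and by 0.91 (SE 0.17, 1.88-fold, adjusted p = 0.000339) in females, where sham mice read 5.46 to 6.04 and MI mice 6.22 to 7.06. Both dimmer P3h1 probes missed the test in males, at 0.46 (adjusted p = 0.056) and 0.23 (adjusted p = 0.297). In females both passed it, each at 0.77, so the male call of this gene depends on the probe. Ppib, the cyclophilin B proline isomerase, read 9.29, 9.07, 8.71, 9.45 and 9.26 and 9.87, 9.63, 9.93, 9.82 and 9.91 in the 2 male groups and 9.53, 9.23, 8.97, 9.58 and 9.33 and 10.37, 10.16, 9.62, 10.67 and 10.30 in the 2 female groups. Its groups did not overlap in either sex, and it rose by 0.68 (SE 0.17, 1.60-fold, adjusted p = 0.00754) in males and by 0.90 (SE 0.17, 1.86-fold, adjusted p = 0.000352) in females. Crtap, the partner protein that holds the complex together, rose by 0.52 (SE 0.14, 1.43-fold, adjusted p = 0.0154) in males and by 0.65 (SE 0.14, 1.57-fold, adjusted p = 0.00144) in females. The male groups were separate and the female groups overlapped, since female sham 3 read 8.94 and female MI 3 and 5 read 8.83 and 8.84.

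Serpinh1, the collagen chaperone Hsp47, was among the brightest members. It read 12.11, 12.08, 12.54, 11.76 and 12.09 in male sham and 12.64, 12.49, 12.75, 12.41 and 12.46 in male MI. The groups overlapped only through male sham 3, a position F array, and the difference of 0.43 (SE 0.18, adjusted p = 0.0935) missed the threshold. Without male sham 3 it was 0.54 (adjusted p = 0.0469). In females Serpinh1 read 12.11, 12.61, 11.64, 12.04 and 11.96 and 13.08, 13.11, 12.46, 13.39 and 12.73 and rose by 0.88 (SE 0.18, 1.84-fold, adjusted p = 0.00074). Of the 5 female MI mice, 4 stood above every female sham mouse, and female MI 3 lay just under female sham 2.

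Fkbp11, a membrane-bound ER proline isomerase of the FK506-binding family known from secretory cells, changed more than any other member in both sexes. It read 7.56, 7.06, 7.21, 7.31 and 7.41 in male sham and 8.30, 8.28, 8.82, 8.52 and 8.47 in male MI, and 7.22, 6.91, 6.72, 7.64 and 6.74 in female sham and 9.38, 9.38, 8.25, 9.001 and 9.07 in female MI. The highest sham mouse of either sex, at 7.64, lay well under the lowest MI mouse, at 8.25. The rise was 1.17 (SE 0.20, 2.25-fold, adjusted p = 0.000392) in males and 1.97 (SE 0.20, 3.92-fold, adjusted p = 6.34e-07) in females, and it was 1.19, 1.14, 1.82 and 2.33 within chips 1 to 4. Since plasma cells are rich in this gene, their markers were read beside it: 3 of 11 B and plasma cell markers were tested, and Jchain, Ms4a1, Tnfrsf17, Pou2af1, Prdm1 and Irf4 were detected on 0 of 20 arrays. Of the 3 tested, Sdc1, the syndecan CD138, rose by 0.79 in males (SE 0.14, adjusted p = 0.000532) and 0.93 in females (SE 0.14, adjusted p = 3.79e-05). Mzb1, an ER protein of B and plasma cells, fell in males, at −0.56 (SE 0.12, adjusted p = 0.00228), and differed by −0.28 in females (adjusted p = 0.0684), while Cd79b passed the test in neither sex. All 3 were dim, which limits what their differences can show. Mzb1 was detected on 14 of 20 arrays, Cd79b on at most 13 and Sdc1 on at most 11.

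The other FK506-binding members moved less. Fkbp14, which binds collagen in the ER, read 6.91, 6.75, 6.73, 6.56 and 6.60 in female sham and 7.47, 7.27, 7.06, 7.10 and 7.30 in female MI, with no overlap and a rise of 0.53 (SE 0.094, 1.45-fold, adjusted p = 0.000228). In males its 10 values lay between 6.38 and 6.63, and the difference was 0.04 (SE 0.094, adjusted p = 0.81). Fkbp9 differed by 0.12 (SE 0.12, adjusted p = 0.553) in males and 0.21 (SE 0.12, adjusted p = 0.195) in females. Fkbp7 differed by −0.01 (SE 0.26, adjusted p = 0.983) in males and 0.34 (SE 0.26, adjusted p = 0.338) in females, and its lowest value, 5.85, came from female sham 2 in position F. Without that array the female Fkbp7 value was −0.01.

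Colgalt1, the galactosyltransferase that puts the first sugar on hydroxylysine, read 9.01, 8.92, 9.003, 8.98 and 8.94 in male sham and 9.24, 9.47, 9.87, 9.41 and 9.49 in male MI. The sham mice were tightly grouped and every MI mouse exceeded them, a rise of 0.53 (SE 0.12, 1.44-fold, adjusted p = 0.00477). Female sham mice read 8.85 to 9.44 and female MI mice 9.55 to 9.96, a rise of 0.72 (SE 0.12, 1.64-fold, adjusted p = 0.000145).

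The extracellular steps of procollagen cleavage moved the same way. Pcolce, the enhancer of the C-proteinase, read 8.57, 8.27, 8.29, 8.26 and 8.45 in male sham and 8.84, 8.99, 9.33, 8.71 and 9.01 in male MI. In females it read 8.46, 8.56, 8.49, 8.35 and 8.09 and 9.63, 9.43, 9.08, 9.56 and 9.28. There was no overlap in either sex, and Pcolce rose by 0.61 (SE 0.13, 1.52-fold, adjusted p = 0.00268) in males and 1.00 (SE 0.13, 2.01-fold, adjusted p = 8.06e-06) in females. Bmp1, the C-proteinase itself, rose by 0.83 (SE 0.22, 1.78-fold, adjusted p = 0.00731) in females, with overlapping groups, and differed by 0.52 (SE 0.22, adjusted p = 0.115) in males on its brightest probe. Both dimmer Bmp1 probes passed the test in males, at 0.75 (adjusted p = 0.00671) and 0.71 (adjusted p = 0.00443), so the missed male call of this gene depends on the probe.

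**Figure D3:**
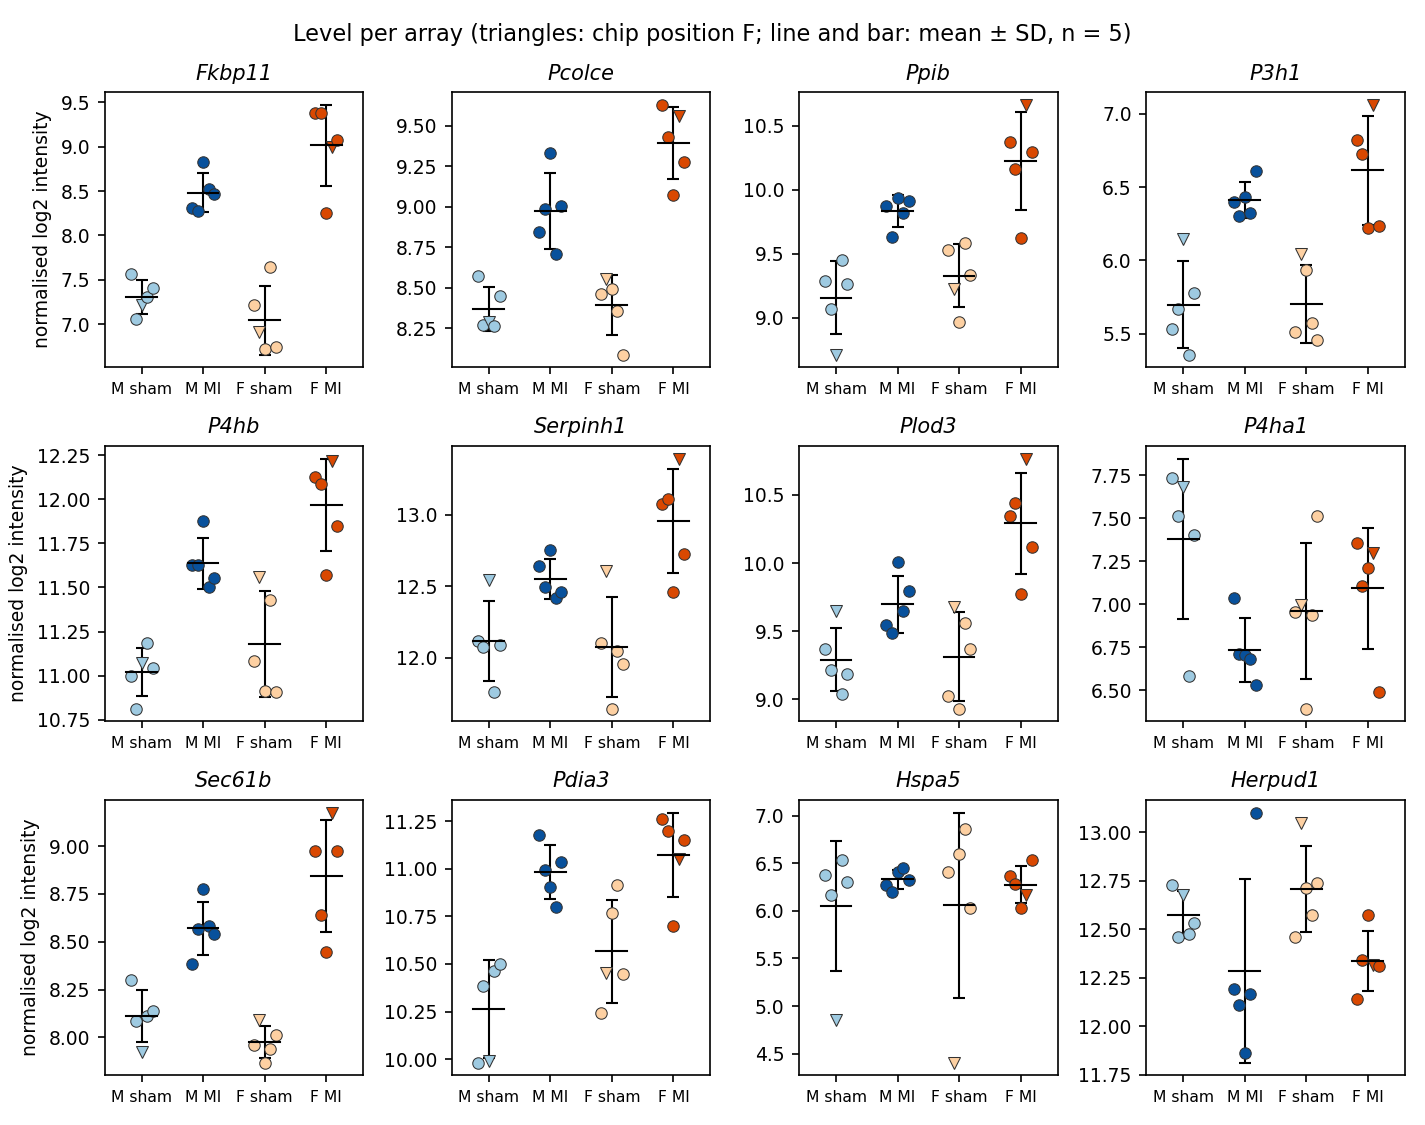
Normalised log2 intensity of 12 members on each array, with the group mean ± SD (n = 5); M is male, F is female, and triangles are arrays in chip position F. Fkbp11, Pcolce, Ppib, P3h1, P4hb and Sec61b separate sham from MI in both sexes, and the low Hspa5 points in the sham groups are position F arrays.

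Among the general chaperones the genes that rose were mainly disulphide isomerases and a translocon subunit, while Hspa5 did not pass the test. Pdia3, the isomerase ERp57 that works on glycoproteins, read 9.98, 10.38, 9.99, 10.46 and 10.50 in male sham and 11.18, 10.99, 10.90, 10.80 and 11.04 in male MI. The male groups were separate, and Pdia3 rose by 0.72 (SE 0.14, 1.65-fold, adjusted p = 0.0016) in males and by 0.51 (SE 0.14, 1.42-fold, adjusted p = 0.00953) in females, where the groups overlapped. Pdia4, the isomerase ERp72, rose by 0.62 (SE 0.15, 1.53-fold, adjusted p = 0.00543) in males and 0.62 (SE 0.15, 1.53-fold, adjusted p = 0.00274) in females. Pdia6, another isomerase, differed by 0.30 (SE 0.15, adjusted p = 0.166) and 0.39 (SE 0.15, adjusted p = 0.0512) and stayed short of the threshold in both sexes. Leaving out any of male sham 1, male sham 3, female sham 3 or female MI 3 brought its female value past it.

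Sec61b, the β subunit of the protein-conducting channel, read 7.96, 8.09, 7.87, 7.94 and 8.01 in female sham and 8.97, 8.64, 8.45, 9.18 and 8.98 in female MI. It was the only general chaperone member whose groups were separate in females, with a rise of 0.87 (SE 0.12, 1.82-fold, adjusted p = 1.86e-05), and it rose by 0.46 (SE 0.12, 1.37-fold, adjusted p = 0.0114) in males. A second Sec61b probe also passed the test in both sexes, at 0.34 in males and 0.53 in females. Sdf2l1 and Creld2, luminal proteins induced by ER stress, rose in females, by 0.63 (SE 0.19, 1.55-fold, adjusted p = 0.0132) and 0.51 (SE 0.15, 1.43-fold, adjusted p = 0.0102). In males they differed by 0.43 (SE 0.19, adjusted p = 0.117) and 0.40 (SE 0.15, adjusted p = 0.0643), and leaving out male sham 5 or female MI 3 brought Creld2 past the threshold.

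The Hsp70 and Hsp90 members gave a mixed picture. Hsp90b1 read 11.22, 11.36, 11.26, 11.41 and 11.20 in male sham and 11.95, 11.70, 11.66, 11.56 and 11.68 in male MI, without overlap, and rose by 0.42 (SE 0.12, 1.34-fold, adjusted p = 0.0239). The call was lost without male sham 1 or without male MI 1. In females Hsp90b1 differed by 0.19 (SE 0.12, adjusted p = 0.268). Hspa5 read 6.37, 6.17, 4.86, 6.54 and 6.31 in male sham and 6.27, 6.20, 6.41, 6.45 and 6.33 in male MI, and 6.41, 4.40, 6.59, 6.86 and 6.03 and 6.37, 6.29, 6.02, 6.17 and 6.53 in females. Its lowest values, 4.86 and 4.40, were both sham arrays in position F, while the remaining 18 lay between 6.02 and 6.86, so the differences of 0.28 (SE 0.34, adjusted p = 0.613) and 0.22 (SE 0.34, adjusted p = 0.666) carry wide intervals. Without male sham 3 the male Hspa5 difference was −0.02, and without female sham 2 the female difference was −0.20, so the sign of each rests on 1 array. Hyou1, the nucleotide exchange partner of BiP, was detected on 1 sham and 3 MI arrays in males and on 2 sham and 4 MI arrays in females, and differed by 0.12 (SE 0.18, adjusted p = 0.703) and −0.20 (SE 0.18, adjusted p = 0.41).

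Calr, the lectin chaperone calreticulin, had the widest scatter. It read 7.21, 7.63, 7.72, 7.503 and 8.01 in male sham and 9.14, 9.59, 7.76, 7.84 and 8.01 in male MI, the difference of 0.85 (SE 0.37, adjusted p = 0.114) resting on male MI 1 and 2. In females it read 7.59, 7.57, 9.48, 7.97 and 7.54 and 8.31, 8.05, 7.84, 8.92 and 7.62, with female sham 3 highest, and differed by 0.12 (SE 0.37, adjusted p = 0.837). Dnajc3, a BiP co-chaperone that also restrains the stress kinase PERK, differed by 0.06 (SE 0.15, adjusted p = 0.839) and 0.09 (SE 0.15, adjusted p = 0.712).

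On their brightest probes the stress regulators stayed short of the threshold in both sexes, with differences between −0.37 and 0.28. Xbp1, a transcription factor of the unfolded protein response, differed by 0.27 (SE 0.14, adjusted p = 0.18) in males and 0.28 (SE 0.14, adjusted p = 0.126) in females. It passed the test in both sexes with array weights, and in females also without female MI 3, at 0.37 (adjusted p = 0.0462). Atf4 differed by 0.26 (SE 0.14, adjusted p = 0.198) and 0.04 (SE 0.14, adjusted p = 0.854). A dimmer Atf4 probe, detected on 20 arrays, gave 0.44 in males (adjusted p = 0.0542) and 0.28 in females (adjusted p = 0.182). With the mean of all kept probes Atf4 passed the test in males. Atf6 differed by −0.12 (SE 0.099, adjusted p = 0.448) and −0.11 (SE 0.099, adjusted p = 0.428). A dimmer Atf6 probe, detected on 7 arrays, gave 0.10 in males and passed the test in females at −0.29 (adjusted p = 0.0472). These arrays measure the total message, not the spliced Xbp1 form or the cleaved ATF6 protein. Ddit3, the stress factor CHOP, differed by −0.37 (SE 0.15, adjusted p = 0.096) and −0.13 (SE 0.15, adjusted p = 0.554). Herpud1, an ER membrane protein of the disposal route, read 12.73, 12.46, 12.68, 12.48 and 12.53 in male sham and 12.19, 12.11, 11.86, 12.17 and 13.10 in male MI. All male MI mice except male MI 5 lay below every male sham mouse, and male MI 5 lay above all of them. The male difference was −0.29 (SE 0.17, adjusted p = 0.245), and without male MI 5 it was −0.49 (adjusted p = 0.0104). In females Herpud1 differed by −0.37 (SE 0.17, adjusted p = 0.099), and with male MI 5 left out of the shared estimate of spread the adjusted p of that value was 0.0185. A second Herpud1 probe gave −0.14 in males and 0.07 in females, neither passing the test.

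**Figure D4:**
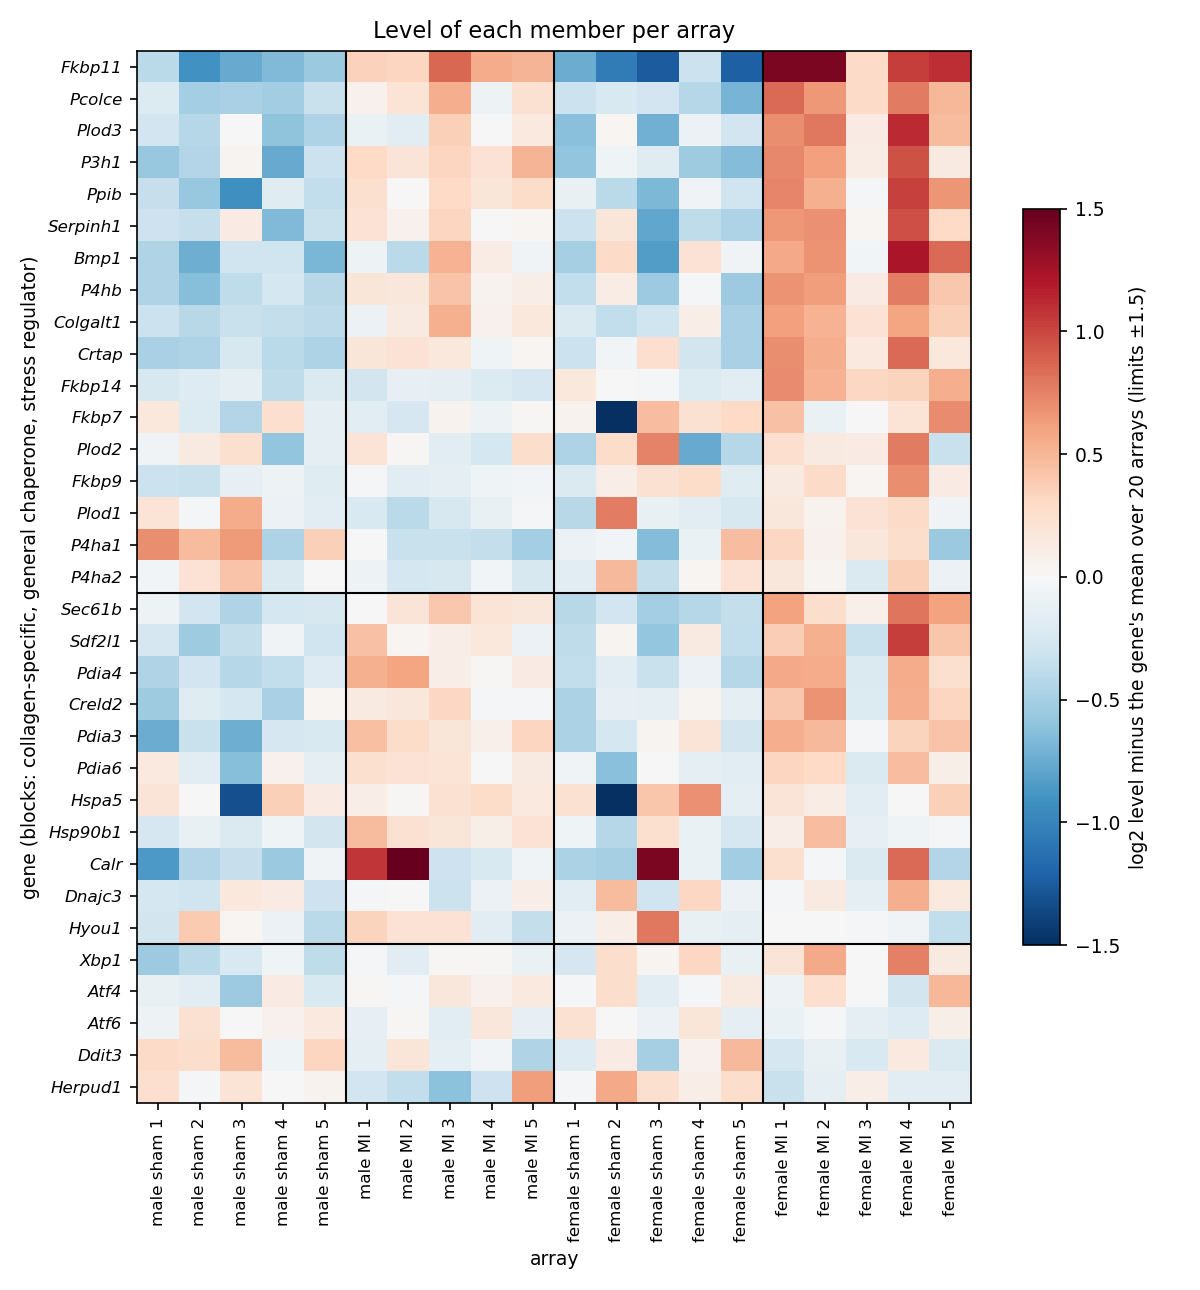
Log2 level of the 33 tested members (rows, in 3 class blocks) on each of the 20 arrays (columns, by group), relative to the mean of the gene over all arrays; colours end at ±1.5. The upper rows turn from blue in sham to red in MI in both sexes, female MI 3 is paler than the other female MI arrays, and the regulator block shows no such turn.

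Set against each other, the collagen-specific and general classes had close medians in males and medians farther apart in females. The median log2 difference over the tested collagen-specific genes was 0.43 in males and 0.72 in females, over the general chaperones 0.42 and 0.39, over the stress regulators −0.12 and −0.11, and over all genes −0.04 and −0.05. The collagen-specific median thus exceeded the general median by 0.016 in males and 0.33 in females. Leaving out single arrays moved the male gap between −0.10 and 0.12, crossing 0, and the female gap between 0.22 and 0.41. Narrowing the collagen-specific class to 11 tested genes, Bmp1 among them, left both medians of that class at 0.43 and 0.72. Fkbp11, P4hb and Ppib were among the genes left out. In the narrower set 4 of 11 rose and 1 fell in males, where 9.77% of all genes rose and 8.59% fell. In females 7 of 11 rose, where 16.5% of all genes did. Relative to sham of the same sex, its mean was 0.24 in male MI and 0.60 in female MI, against 0.31 and 0.67 for the whole class.

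The same contrast was read on each array as a class mean relative to sham of the same sex. Collagen-specific genes averaged 0.31 ± 0.09 in male MI and 0.67 ± 0.24 in female MI (SD, n = 5), with ranges of 0.21 to 0.44 and 0.34 to 0.95. General chaperones averaged 0.42 ± 0.15 in male MI and 0.36 ± 0.23 in female MI, the lowest female mouse, female MI 3, being at the sham mean. The collagen-specific minus general gap was −0.12 ± 0.19 in male MI and 0.31 ± 0.06 in female MI, against an SD of 0.21 among male sham and 0.23 among female sham mice. The gap of female MI mice, 0.24 to 0.37, lay inside the range of female sham mice, −0.30 to 0.32, only in part, and the male groups overlapped. No test was made on these class values, since the members were chosen with results known.

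**Figure D5:**
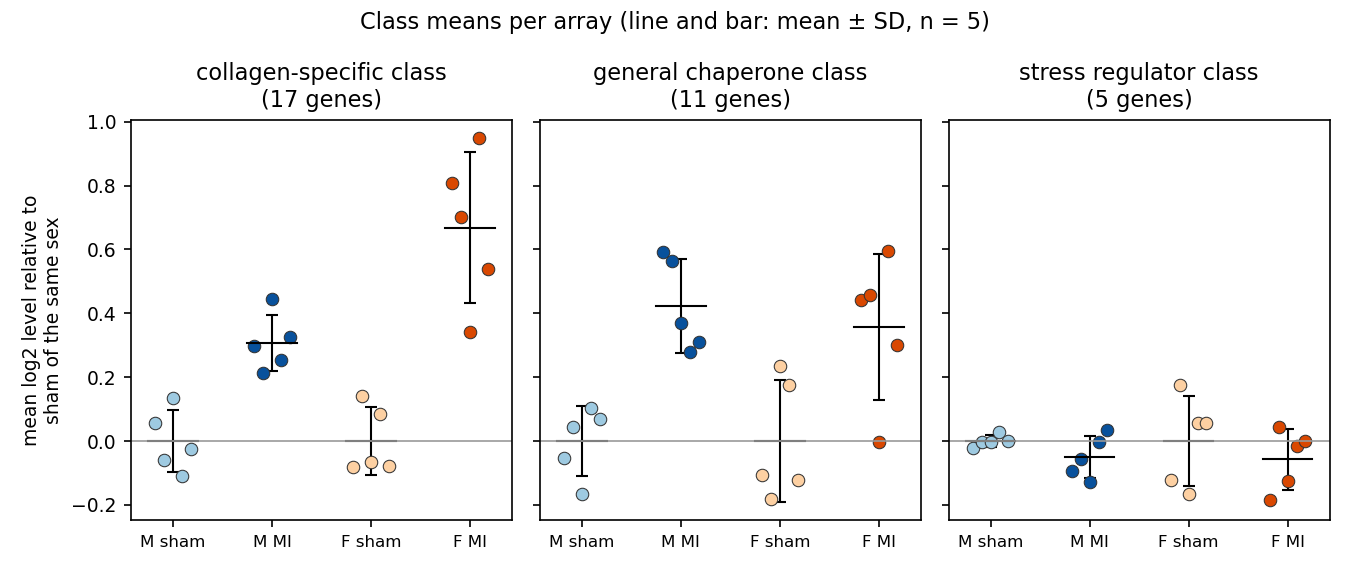
Mean log2 level of each class on each array relative to the sham mean of the same sex, with the group mean ± SD (n = 5 mice). Collagen-specific genes reach 0.31 in male MI and 0.67 in female MI, general chaperones 0.42 and 0.36, and stress regulators stay near 0.

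Chip by chip the order of the classes varied in males. The collagen-specific median was 0.38 and 0.42 on chips 1 and 2 in males and 0.59 and 0.75 on chips 3 and 4 in females. General chaperones had medians of 0.49, 0.20, 0.21 and 0.46 on those chips. The general class was thus ahead on chip 1 and behind on chips 2, 3 and 4.

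The same counts were taken for genes with and without the ERSE letters. Of the 6 tested general chaperones with an exact ERSE, 1 rose in males, where 9.77% of all genes did, and 1 in females, where 16.5% did, with medians of 0.35 and 0.20. Of the 4 tested general chaperones in the promoter table without it (Pdia3, Pdia4, Sdf2l1 and Sec61b), 3 rose in males and 4 in females, with medians of 0.54 and 0.62. Of the 15 tested collagen-specific genes in the table, none of which has an exact ERSE, 7 rose and 1 fell in males and 10 rose in females. These are counts over few genes and were not tested against each other. The split rests on exact letters only and does not part genes that respond to ER stress from genes that do not.

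Whether the response differed between the sexes was asked of the interaction, females minus males. By limma 0 of 33 members were called, as were 0 of all genes tested (0%), and 6 members (Fkbp14, Fkbp11, P4ha1, Sec61b, Plod3 and Pcolce) had an unadjusted p under 0.05, where 8.44% of all genes did. All 6 were larger in females. Fkbp14 differed most by p, at 0.49 (95% interval 0.22 to 0.77, unadjusted p = 0.00136, adjusted p = 0.554), and Fkbp11 had the largest estimate, at 0.80 (0.22 to 1.38, adjusted p = 0.554). The estimate was above 0 for 17 of 17 collagen-specific genes, with a median of 0.31, for 5 of 11 general chaperones, with a median of −0.002, and the median of all genes was 0.03. Male arrays lie on chips 1 and 2 and female MI arrays on chips 3 and 4, so sex and chip are largely shared in this contrast, and with the chip as a fixed block 0 members were called as well. Calls in females and not in males, such as those of Serpinh1, Bmp1 and Fkbp14, are therefore not shown to differ between the sexes.

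After sham surgery no member differed between the sexes past the threshold: 0 of 33 members were called between female and male sham mice by limma, where 0.108% of all genes were, and 2 members had an unadjusted p under 0.05, where 12.7% of all genes did. These were Xbp1, 0.37 higher in females (95% interval 0.08 to 0.66), and Pdia3, 0.30 higher (0.01 to 0.60). A difference that missed the threshold does not show equal levels. Only chip 2 holds sham mice of both sexes, and there the collagen-specific median was 0.21 and the general median −0.08.

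Female and male MI mice were also compared directly, a comparison added after those planned. By limma 1 of 33 members was called, where 0.139% of all genes were: Fkbp14 was 0.68 higher in female MI (SE 0.09, 1.60-fold, adjusted p = 0.000847), with no overlap between the groups. At an unadjusted p under 0.05 there were 13 members, 11 of them collagen-specific, where 14.9% of all genes had one. The female MI mean was above the male MI mean for 17 of 17 collagen-specific genes, with a median of 0.36. Male MI arrays lie on chips 1 and 2 and female MI arrays on chips 3 and 4, and with the chip as a fixed block 0 members were called, Fkbp14 then differing by 0.93 (adjusted p = 0.0934). Without female MI 3 there were 6 calls, and with array weights 12, the shares of all genes called under these settings not being given here. These groups also enter the MI against sham comparisons, so the values are not independent of those above.

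Within the female MI group, female MI 3 was the lowest of the 5 female MI mice for 16 of the 16 members that rose in females, and for 75.3% of all genes that rose there. Without it 18 members rose in females and 12 rose with 1 falling in males, the shares of all genes not being given here. Its summed macrophage markers were 5762 against 7037 to 12439 in the other female MI mice, and its fibroblast markers, at 14024, lay within their range of 11450 to 16478, the low end being female MI 4 in position F.

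Other genes of the same pathways were read in 3 further lists, against the 9.77% of all genes that rose in males and the 16.5% that rose in females. Of 25 further collagen processing genes, 18 were tested, and 4 rose in males while 5 rose and 3 fell in females, with medians of −0.04 and −0.002. The KDEL receptors, which return ER proteins that escaped to the Golgi, led this list. Kdelr3 rose by 1.17 in males (SE 0.22, adjusted p = 0.0011) and 1.77 in females (SE 0.22, adjusted p = 6.87e-06), and Kdelr2 by 1.09 (SE 0.19, adjusted p = 0.000554) and 1.06 (SE 0.19, adjusted p = 0.000275). Creb3l1, an ER-anchored transcription factor known in mouse bone to drive type I collagen, rose by 0.69 in males and 0.65 in females. Pcolce2, a relative of Pcolce, rose by 0.36 in males, and P3h3, of the prolyl 3-hydroxylase family, rose by 0.89 in females. Colgalt2, Pcsk6 and Ctage5 were lower in females, at −0.58, −0.42 and −0.33.

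The next lists cover folding in the ER and entry into it. Of 40 further ER folding and disposal genes, 32 were tested, and 4 rose in males and 11 in females with 0 falling, with medians of 0.12 and 0.21. Txndc5, a disulphide isomerase, rose by 0.54 in males (SE 0.19, adjusted p = 0.0464) and 0.99 in females (SE 0.19, adjusted p = 0.000405), and Pdia5, another isomerase, by 0.62 and 0.81. Of 28 translocation and glycosylation genes, 23 were tested, and 8 rose in males and 12 in females with 0 falling, with medians of 0.27 and 0.41. Ssr1, a subunit of the translocon-associated complex, rose by 0.84 in males and 0.78 in females, and Ostc, a subunit of the oligosaccharyl transferase, by 0.78 and 0.83. Tram1 and Spcs3, of the translocon and the signal peptidase, rose by 0.69 and 0.78 in males, and Ssr2 and Sec61a1 by 0.87 and 0.85 in females.

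Markers of several other cell types changed too. Of 10 fibroblast markers 9 were tested, and 5 rose in males and 4 in females. Col1a1, Col1a2, Col3a1 and Thy1 rose in both sexes and Lum in males alone. Pdgfra, Pdgfrb, Dcn and Tcf21 passed the test in neither sex, and Postn was detected on 0 arrays. The summed normalised intensity of the tested fibroblast markers was 7110 to 12633 in male sham and 13685 to 15318 in male MI. It was 4511 to 14571 in female sham and 11450 to 16478 in female MI. The 2 low ends among sham mice, male sham 3 and female sham 2, are position F arrays, and without position F the sums started at 10296 in male sham and 11948 in female sham. Of 8 tested macrophage markers out of 10, 6 rose in males and 8 in females, with sums of 3340 to 4451, 6291 to 8168, 3045 to 4860 and 5762 to 12439. All 6 tested neutrophil markers and all 6 tested cycling cell markers rose in both sexes, of 8 in each list. Of 7 tested endothelial markers, 0 rose in either sex and 1 fell in females. Of 7 smooth muscle and pericyte markers 6 were tested, with Cnn1 detected on 0 arrays. Tagln rose in both sexes, Acta2 rose in females, and Myh11 and Rgs5 fell in females. Their sums were 5410 to 9309 in male sham, 6797 to 7989 in male MI, 5862 to 8607 in female sham and 8368 to 11687 in female MI. B and plasma cell sums were 82.8 to 94.8 in male sham, 81.5 to 113 in male MI, 81.4 to 86.8 in female sham and 93.3 to 125 in female MI. The part of these cells in the changes of the collagen processing genes was not tested.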

How the data were processed

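The deposited values are linear bead intensity, not normalised between arrays, each with its detection p-value, per the file headers. A deposited matrix of log2 values served only as an alternative. RNA was extracted with a fibrous tissue kit and labelled as biotin cRNA, per the labels' protocols; the array version is not given in the sources used here.

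Intensities were processed with neqc of limma 3.58.1 in R 4.3.3: normexp background correction (negative controls inferred from detection), an offset of 16, quantile normalisation and log2. Among 45281 probes the annotation gives 1 gene symbol for 34885 and several for 18, with none for 10378 (platform annotation); 18683 passed the filter of a detection p under 0.01 on 5 arrays. Differences therefore refer to normalised intensity, and those of dim probes are understated by the offset.

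A linear model of group means used all 20 arrays with no covariate (16 residual degrees of freedom). Calls use limma's moderated test at 0.05 after Benjamini-Hochberg adjustment over all 12921 features, the source of the adjusted p-values in the text. Those of second or dimmer probes come from the same test over all 18683 kept probes. The number of arrays limits the precision. Mice are numbered within a group in the order of chip and position, since the sample titles hold no replicate number. No array was dropped as a duplicate: the closest, male MI 1 and 2, had a median absolute log2 difference of 0.123 over genes.

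The members, the further pathway lists and the marker lists were chosen with earlier results of these data known. All members are accounted for; from each further list up to 4 called genes per direction are named, by smallest p. Alternatives were other scalings, filters and probes, array weights, chip and replicate blocks, single chips and leaving out each array. The comparison of the 2 MI groups, and its alternatives, were added after the data were seen.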

Additional observations from a re-analysis of the deposited data

Results flagged for a closer look

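In each group of 5 mice, a member was looked at again where the highest or lowest mouse stood apart from the next by over 0.71 of the group's range. This held for 10 of 132 member and group combinations, and chance alone gives about 1 in 20. Of the 10 values, 4 came from arrays in chip position F: Plod1 at 7.45, Fkbp7 at 5.85 and Pdia6 at 6.16 in female sham 2, and Hspa5 at 4.86 in male sham 3. P4ha1 stood low in male sham 4, at 6.58, and in female MI 5, at 6.49. Hyou1 stood high in female sham 3, at 5.69, and low in female MI 5, at 4.52, where it is near the detection limit. Calr stood high in female sham 3, at 9.48, the same mouse as the high Hyou1. Herpud1 stood high in male MI 5, at 13.1, against 11.86 to 12.19 in the other male MI mice.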

How the results depend on the processing

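Under the settings tried no called member changed sign, although single dimmer probes of P4ha1 in males (0.11) and of Plod3 (−0.57 in males, −0.33 in females) did differ in sign from the probe used. The number of members called in males was 12 and became 3 within chip 2 (2 mice against 2), 19 with array weights (17 higher and 2 lower) and 10 to 13 when single arrays were left out. In females it was 16, became 6 within chip 3, was 22 with array weights (22 higher and 0 lower) and ranged from 16 to 18 without single arrays. The 1 member called between female and male MI became 0 with the BeadChip block, 12 with array weights and 1 to 6 without single arrays, 6 being the count without female MI 3. For the counts so far, the shares of all genes called under each setting are not given here. The male gap between class medians, 0.016, was 0.227 within chip 2. Scaling to the 75th percentile gave 9 higher and 3 lower members in males, against 11 and 1, and 998 higher and 2047 lower among all genes, against 1263 and 1110; it lost P4hb and Hsp90b1 and added Ddit3 and Herpud1 as lower. Of 3162 values of single members under alternatives, 3076 kept their side of the threshold, 43 passed it newly and 43 no longer passed it. That total includes the interaction, where no value passed the threshold under any setting. It also includes runs without an array of the other sex, which leave the MI minus sham difference itself unchanged. The share that kept its side therefore overstates how firm the calls are. The replicate numbers follow the order of chip and position, so they give no pairing of the mice. Same-numbered sham and MI mice correlated between −0.325 and 0.139 in males and −0.056 and 0.319 in females. In each sex 2 of 5 correlated best with their own number. With the replicate number as a block, 11 members were called in males, P4ha1 not among them, 16 in females, 0 in the interaction, 0 between sham groups and 1 between MI groups. The shares of all genes called with this block are not given here either. Dim members such as Hyou1 and Atf6 lie close to background, which limits what their differences can show.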
